A study of Mus musculus with 6 samples.

Results

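The pro-apoptotic members of the BCL2 family were examined in mouse acute myeloid leukemia (AML) cells with a floxed *Phf6* allele, with or without a Cre transgene. *Phf6* lies on chromosome X and encodes a plant homeodomain finger protein. The members were taken by name: the 3 effector genes *Bax*, *Bak1* and *Bok*, and the 7 BH3-only genes *Bid*, *Bcl2l11* (BIM), *Bbc3* (PUMA), *Bad*, *Bmf*, *Bik* and *Pmaip1* (NOXA). All 10 were found, each as 1 gene, in a table of read counts for 54532 genes. Lineage-negative cells of fetal livers (embryonic day E14.5), either *Phf6 fl/y* or *Vav1-Cre;Phf6 fl/y*, had received a retrovirus carrying RUNX1-ETO9a (RE9a), a splice form of the t(8;21) fusion, together with GFP. They were passed serially through male recipients, and RNA was sequenced from GFP+ cells sorted from the leukemic bone marrow. Both groups carry RE9a-GFP and the floxed *Phf6* allele. The *VC Phf6,RE9a* group (3 libraries, replicates 11, 12 and 13) also carries *Vav1-Cre*, whose promoter is active throughout the blood lineage, and the *WT Phf6,RE9a* group (3 libraries, replicates 1, 2 and 3) does not. They are called VC and WT libraries from here on. Their labels give the genotype as a *Phf6* knockout specific to the hematopoietic system and as *Phf6* WT. Because the controls lack the Cre transgene, deletion of *Phf6* and presence of Cre cannot be told apart. The study's methods put its male mice at 6 to 8 weeks of age. Whether the 3 libraries of a group came from separate leukemias is not given in the sources used here, so the p-values measure only the spread between these libraries, which may be technical.

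Cells that die through the mitochondrial pathway do so when BAX or BAK1 oligomerize and open the outer mitochondrial membrane, which releases cytochrome c and leads to caspase activation. Anti-apoptotic relatives such as BCL2, BCL-XL (*Bcl2l1*) and MCL1 hold this step in check. BH3-only proteins sense stress and tip the balance: BIM, PUMA and BID bind and activate the effectors directly as well as binding the anti-apoptotic proteins, whereas BAD, BMF, BIK and NOXA act mainly by occupying anti-apoptotic proteins. Many of these proteins are governed after translation, by cleavage, phosphorylation or sequestration, so transcript levels give only one layer of their control.

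Each library held between 15675358 and 16817994 counts. A gene without reads can still be present at up to 3 counts, or 0.175 to 0.204 CPM (counts per 1000000 counts) depending on the library, which covers counting error only. All CPM are scaled by TMM, edgeR's correction for differences in library composition, and are given as mean ± SD (n = 3). As a check of the labels, *Phf6* had 1044, 827 and 1142 counts in WT and 388, 314 and 331 counts in VC cells. It fell in the VC libraries (log2 fold change -1.66, SE 0.13, adjusted p = 9.3e-05 in the quasi-likelihood test of edgeR, where SE is the standard error). Reads of *Phf6* remained in all 3 VC libraries, and whether they lie outside the deleted part cannot be read from counts per gene. The labelled cell type was checked against 8 genes of myeloid progenitors and leukemia cells. *Kit*, the stem cell factor receptor, had the highest mean CPM of these in both groups, with 2420 ± 471 CPM in WT and 273 ± 70.1 CPM in VC cells. In VC replicate 11, though, *Myb* (267.9 CPM) was above *Kit* (217.2 CPM). Per length, however, the means of *Elane* and *Mpo* were above that of *Kit* in VC cells. *Myb* was at 338 ± 35.0 and 264 ± 13.3 CPM and *Cd34* at 383 ± 339 and 15.5 ± 14.0 CPM, and these genes and *Kit* were lower in VC cells. The granule protein genes *Mpo*, *Elane*, *Prtn3* and *Ctsg* were low in WT cells, at 36.3 ± 27.9 CPM for *Mpo*, the highest of them by CPM, and were higher in VC cells. *Ptprc*, the leukocyte antigen CD45, had 22.7 ± 10.1 and 41.1 ± 20.3 CPM and did not pass the threshold. In the WT libraries these levels stood beside 16980 to 27233 CPM summed over 9 genes of mast cells and basophils, given below.

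The 3 members that passed the test were all lower in VC cells: *Bid*, *Bmf* and *Bax*. They are 33.3% of the members tested, where 44.2% of all genes tested passed. When single libraries were left out, *Bid* passed in 6 of 6 fits, *Bmf* in 2 and *Bax* in 1. The promoter windows of these 3 genes are shown because they passed with all 6 libraries. Each window runs from 250 bases before to 50 bases after the transcription start nearest to the start of the deposited gene. The sequences are from RefSeq (GRCm38.p6), are written 5′ to 3′ on the strand of the gene, and lie at chr6:120916775-120917074 (*Bid*, minus strand), chr2:118549637-118549936 (*Bmf*, minus strand) and chr7:45466849-45467148 (*Bax*, minus strand). Capitals mark GGGCGG or its complement CCGCCC, the core of the GC box bound by SP and KLF factors, and CACGTG, the E-box bound by MYC-type factors.
Bid: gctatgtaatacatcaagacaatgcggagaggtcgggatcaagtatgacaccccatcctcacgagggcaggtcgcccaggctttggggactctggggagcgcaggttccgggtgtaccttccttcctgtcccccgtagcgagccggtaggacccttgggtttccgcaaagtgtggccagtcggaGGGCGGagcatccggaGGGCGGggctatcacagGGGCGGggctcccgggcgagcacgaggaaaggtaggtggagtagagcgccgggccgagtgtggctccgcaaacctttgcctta
Bmf: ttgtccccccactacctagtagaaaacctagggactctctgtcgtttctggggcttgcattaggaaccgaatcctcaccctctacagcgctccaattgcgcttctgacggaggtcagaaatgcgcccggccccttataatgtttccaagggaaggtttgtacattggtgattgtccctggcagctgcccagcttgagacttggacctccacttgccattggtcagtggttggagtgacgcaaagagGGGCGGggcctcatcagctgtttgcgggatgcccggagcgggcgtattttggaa
Bax: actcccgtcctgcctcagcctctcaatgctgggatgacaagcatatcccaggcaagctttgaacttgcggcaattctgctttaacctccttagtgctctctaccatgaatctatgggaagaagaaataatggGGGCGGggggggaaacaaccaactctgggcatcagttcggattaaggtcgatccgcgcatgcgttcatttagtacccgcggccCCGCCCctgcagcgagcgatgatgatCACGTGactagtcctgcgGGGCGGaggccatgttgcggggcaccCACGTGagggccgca
RefSeq windows were searched for 8 of the 10 members, all but *Bik* and *Pmaip1*. GGGCGG was found on either strand in 7 of these 8, *Bak1* being the exception, against 35.6% of all 32817 windows searched. The *Bak1* window lies 382 bases from the start of the deposited gene. The 8 windows are also richer in G and C, at 55.3% to 76.0%, than the median window searched (52.7%), and the part of this in the share of matches was not tested. The windows of *Bid* and *Bax* hold 3 matches each and that of *Bmf* holds 1, but *Bad*, *Bcl2l11* and *Bbc3*, whose transcripts did not pass the test, hold 4, 3 and 5, the *Bbc3* window lying 1190 bases from the start of the deposited gene. CACGTG occurs only in the *Bax* window among the 8 (2 matches), against 7.15% of all windows. TGTGGT, the RUNX core that the RE9a fusion also recognizes, occurs among the 8 in the *Bak1* window, against 16.8%. GAGGAAGT (PU.1, 3.20% of all windows), TGTTTAC (FOXO, 3.65%), the NF-κB motif (4.50%) and the p53 decamer (8.36%) were each found in 1 of the 8 windows, those of *Bak1*, *Bcl2l11*, *Bbc3* and *Bax*. RefSeq gives 6 further starts for *Bad*, *Bmf*, *Bcl2l11* and *Bbc3*, which were searched too. Of the other *Bmf* windows, 1 held 3 matches of TGTGGT and 1 held an NF-κB and a p53 match, and among those of *Bbc3*, 2 held GGGCGG, 1 CACGTG and 1 TGTTTAC. The further *Bad* window held 1 match of GAGGAAGT, and that of *Bcl2l11* held 3 of GGGCGG. The share over all windows counts every start of a gene, not the nearest alone, and the windows searched do not cover every chromosome. A match is a description of the letters and not a binding site, and no binding was measured here.

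Of the 10 members, 9 had enough counts to be tested and *Bok* had none. In the edgeR test, with Benjamini-Hochberg adjustment over all 14169 genes tested, 0 members were higher and 3 were lower in VC cells at an adjusted p under 0.05. The 3 members called are 33.3% of those tested, where 44.2% of all genes tested were called, 21.5% higher and 22.7% lower. The count of members called is therefore not above that of genes in general. At an unadjusted p under 0.05 the counts for the members were again 0 higher and 3 lower. When single libraries were left out, the counts at an adjusted p under 0.05 were 0 to 1 higher and 1 to 3 lower. *Bid* was the only member called lower without WT replicate 1 or any 1 VC library, and at an adjusted p under 0.01. The libraries of the 2 groups did not overlap for 4 of the 9 members (44.4%), against 57.3% of all genes tested. The changes were also small: the median absolute log2 fold change was 0.29 over the 9 members, 0.44 over all genes tested and 0.96 over all genes called. The median signed log2 fold change of the members was -0.23, with 4 values above 0 and 5 below, against 0.01 for all genes tested.

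**Figure D1:**
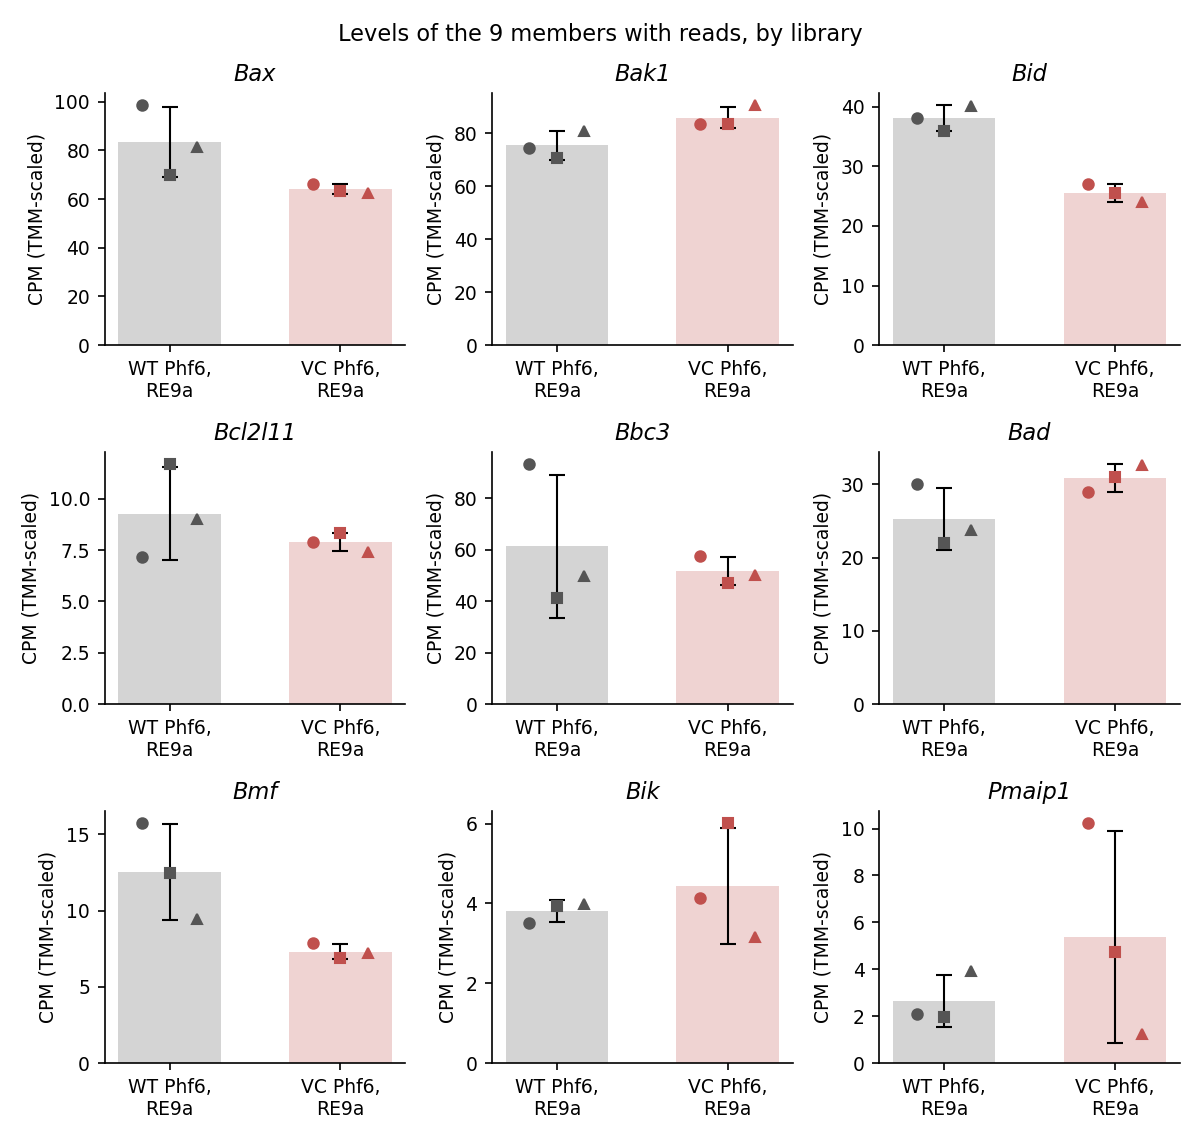
Level of each of the 9 members with reads, in TMM-scaled CPM (y axis, starting at 0 and scaled for each gene), in the 3 WT (grey) and 3 VC (red) libraries. Bars are means, error bars are SD, and circles, squares and triangles are replicates 1, 2 and 3 or 11, 12 and 13. The red points lie under all grey points for *Bax*, *Bid* and *Bmf* and above them for *Bak1*, and the groups overlap for the other 5 genes.

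Among the effectors, *Bax* fell modestly, *Bak1* lay slightly higher without passing the test, and *Bok* was not detected. *Bax* (ENSMUSG00000003873, chromosome 7, 45461697 to 45466898 on GRCm38, minus strand) encodes the effector that moves from the cytosol to mitochondria when activated. Its counts were 1517, 1031 and 1348 in WT and 1123, 1085 and 1054 in VC cells. After scaling these were 98.5, 69.9 and 81.6 CPM against 66.3, 63.2 and 62.6 CPM, so that every VC library lay under every WT library, although the gap between the nearest libraries of the groups was narrow. The level went from 83.3 ± 14.3 to 64.0 ± 1.98 CPM, a log2 fold change of -0.38 (SE 0.13, 95% confidence interval -0.67 to -0.086, adjusted p = 0.0422 from edgeR). This call depended on single libraries: it passed in 1 of the 6 fits that left out a library, that without WT replicate 2 (log2 fold change -0.50, adjusted p = 0.00726 from edgeR). In the other 5 fits the log2 fold change was between -0.40 and -0.25, with adjusted p from 0.0638 to 0.118. It also missed the threshold with upper-quartile scaling (adjusted p = 0.0551 from edgeR) and with limma on log2(FPKM + 1) (adjusted p = 0.0523).

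*Bak1* (ENSMUSG00000057789, chromosome 17, 27019810 to 27029009, minus strand) encodes the effector that resides in the mitochondrial outer membrane. Its counts were 1148, 1039 and 1338 in WT and 1413, 1434 and 1522 in VC cells, or 74.5, 70.5 and 81.0 CPM against 83.4, 83.6 and 90.4 CPM. Each VC library was above each WT library, by a margin that was small beside the spread. The log2 fold change of 0.19 (SE 0.086, 95% confidence interval -0.013 to 0.39) missed the threshold (adjusted p = 0.116 in edgeR). *Bak1* lies whole within *Ggnbp1* on the opposite strand, which had 41 to 90 counts per library. *Bok* (ENSMUSG00000026278, chromosome 1, 93685660 to 93695764, plus strand), an effector kept low by proteasomal turnover in many cells, had 0 counts in all 6 libraries, which allows a level of up to 0.175 to 0.204 CPM, depending on the library.

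Because *Bax* and *Bak1* lay apart in opposite directions, their ratio was taken within each library, on the scale of FPKM (fragment counts per kilobase of gene length, scaled to library size), after these values had been seen. The ratio of *Bax* to *Bak1* was 2.02, 1.52 and 1.54 in WT and 1.21, 1.16 and 1.06 in VC cells. Every WT library thus held more *Bax* relative to *Bak1* than any VC library. The means were 1.69 ± 0.284 and 1.14 ± 0.0789, given as a description without a test, since the separation of the ratio follows from that of the 2 genes.

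Of the 3 BH3-only genes whose proteins activate the effectors directly, *Bid* fell, and *Bcl2l11* and *Bbc3* did not pass the test. *Bid* (ENSMUSG00000004446, chromosome 6, 120891930 to 120916853, minus strand) links death receptors to mitochondria, since caspase-8 cuts the BID protein into its active form. Its counts were 587, 530 and 664 in WT and 458, 437 and 403 in VC cells. The corresponding levels of 38.1, 36.0 and 40.2 CPM and of 27.0, 25.5 and 23.9 CPM were well separated. The level went from 38.1 ± 2.11 to 25.5 ± 1.55 CPM, and so fell by 33.1% (log2 fold change -0.58, SE 0.10, 95% confidence interval -0.82 to -0.34, adjusted p = 0.00319 from edgeR). *Bid* was the one member that passed in each of the 6 fits that left out a library, with log2 fold changes from -0.63 to -0.54 and adjusted p from 0.00323 to 0.0169 in edgeR. It also passed under each of the other alternatives run, with log2 fold changes from -0.59 to -0.53.

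The last 913 bases of the deposited *Bid* gene are shared with *Bcl2l13* on the opposite strand, a BCL2-related gene with 3839, 3475 and 3845 counts in WT and 5236, 5534 and 5713 counts in VC cells. *Bcl2l13* moved the other way (log2 fold change 0.44, adjusted p = 0.00412 from edgeR). The strandedness of the counting is not given in the sources used here, so reads from the shared bases cannot be told apart. A further 2094 bases are shared on the same strand with *Gm44260*, which had 14 to 39 counts per library.

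*Bcl2l11* (ENSMUSG00000027381, chromosome 2, 128126038 to 128162547, plus strand), which encodes BIM, the BH3-only protein that mediates death on loss of growth factors in blood cells, had 110, 172 and 149 counts in WT and 134, 143 and 125 counts in VC cells. The 3 VC libraries (7.91, 8.33 and 7.43 CPM) all lay inside the range of the WT libraries (7.14, 11.7 and 9.02 CPM). The log2 fold change was -0.23 (SE 0.22, 95% confidence interval -0.75 to 0.28, adjusted p = 0.430 from edgeR), an interval that leaves room for a change of either sign.

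*Bbc3* (ENSMUSG00000002083, chromosome 7, 16308393 to 16318205, plus strand), the p53 target that encodes PUMA, had 1436, 610 and 823 counts in WT and 976, 809 and 848 counts in VC cells. WT replicate 1 was far above the other 5 libraries, at 93.2 CPM against 41.4 to 57.6 CPM. With all libraries the log2 fold change was -0.25 (SE 0.28, 95% confidence interval -0.90 to 0.40, adjusted p = 0.503 from edgeR), and without WT replicate 1 it was 0.17. The sign of this value was thus set by 1 library.

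Among the 4 BH3-only genes whose proteins act mainly on the anti-apoptotic members, *Bmf* fell, and *Bad*, *Bik* and *Pmaip1* had log2 fold changes above 0 that did not pass the test. *Bmf* (ENSMUSG00000040093, chromosome 2, 118528757 to 118549687, minus strand) encodes a protein held by a dynein light chain until it is released on loss of attachment or by other stress. It had 242, 184 and 156 counts in WT and 133, 118 and 121 counts in VC cells, or 15.7, 12.5 and 9.44 CPM against 7.85, 6.88 and 7.19 CPM. The VC libraries were tightly grouped under the lowest WT library. The level went from 12.5 ± 3.13 to 7.31 ± 0.499 CPM, and so fell by 41.7% (log2 fold change -0.78, SE 0.22, 95% confidence interval -1.29 to -0.26, adjusted p = 0.0237 from edgeR). This was the largest change among the members called. It passed in 2 of the 6 fits that left out a library, those without WT replicate 2 or 3, and without WT replicate 1, VC replicate 11, 12 or 13 the adjusted p in edgeR was between 0.0564 and 0.0790.

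*Bad* (ENSMUSG00000024959, chromosome 19, 6941861 to 6951898, plus strand), whose protein is kept inactive by AKT and PIM kinases in the presence of survival signals, had 463, 325 and 392 counts in WT and 490, 533 and 549 counts in VC cells. In CPM these were 30.1, 22.0 and 23.7 against 28.9, 31.1 and 32.6, so that WT replicate 1 alone fell among the VC libraries. The log2 fold change was 0.29 (SE 0.14, 95% confidence interval -0.037 to 0.61, adjusted p = 0.133 from edgeR). Without WT replicate 1 it was 0.43 and passed (adjusted p = 0.0345 from edgeR). *Bad* shares 620 bases with *Gpr137* on the opposite strand, which had 298 to 352 counts per library.

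*Bik* (ENSMUSG00000016758, chromosome 15, 83526862 to 83544634, plus strand), whose protein resides mainly at the endoplasmic reticulum, was read at 54, 58 and 66 counts in WT and 70, 103 and 53 counts in VC cells. The VC libraries spanned both sides of the WT libraries, with a log2 fold change of 0.22 (SE 0.29, 95% confidence interval -0.46 to 0.89, adjusted p = 0.580 from edgeR). Without VC replicate 12 the log2 fold change was -0.064.

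*Pmaip1* (ENSMUSG00000024521), which encodes NOXA, a selective partner of MCL1, was the most variable member. It had 32, 29 and 65 counts in WT and 173, 81 and 21 counts in VC cells, or 2.08, 1.97 and 3.93 CPM against 10.2, 4.72 and 1.25 CPM. The highest and the lowest library were both of the VC group. The log2 fold change of 1.01 was the largest of the 9 tested members but had a standard error of 0.67 and a 95% confidence interval of -0.54 to 2.57 (adjusted p = 0.258 from edgeR). It was 0.17 without VC replicate 11 and 1.48 without VC replicate 13, where it passed (adjusted p = 0.0424 from edgeR).

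**Figure D2:**
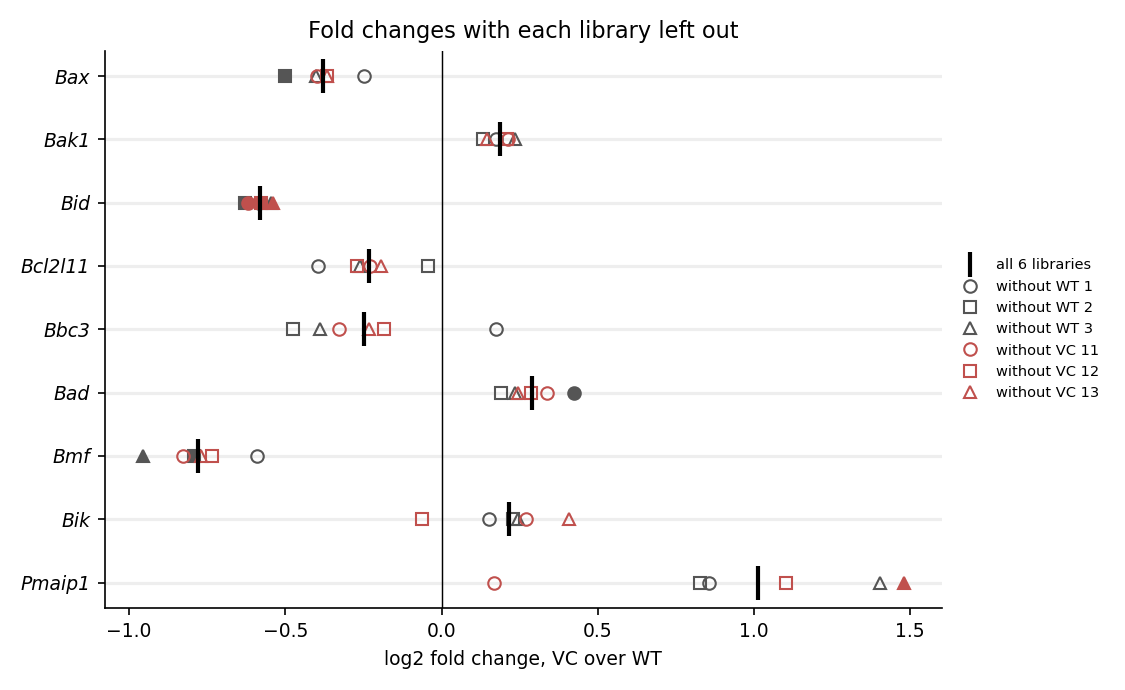
Log2 fold change (VC over WT, x axis) of each tested member (rows) with all 6 libraries (black bars) and with 1 library left out (grey symbols, a WT library left out, and red symbols, a VC library left out), where filled symbols had an adjusted p under 0.05 in edgeR. All 6 symbols are filled for *Bid*, 2 for *Bmf* and 1 each for *Bax*, *Bad* and *Pmaip1*, and the symbols of *Bbc3* and *Bik* lie on both sides of 0.

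The level of *Pmaip1* was set beside the marker genes of other cell types that a sort could hold. The summed level of 12 genes of mature myeloid cells was 201, 172 and 503 CPM in WT and 3773, 2433 and 1000.3 CPM in VC cells. In both groups the library with the highest of these sums (WT replicate 3 and VC replicate 11) also had the highest *Pmaip1*, but VC replicate 13, with a higher sum than any WT library, had the lowest *Pmaip1* of all 6. Of these 12 genes, 11 were higher in VC cells, 0 were lower, and the calprotectin subunit gene *S100a9* was the most abundant per length in both groups. The part of these cells in the level of *Pmaip1* was not tested.

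**Figure D3:**
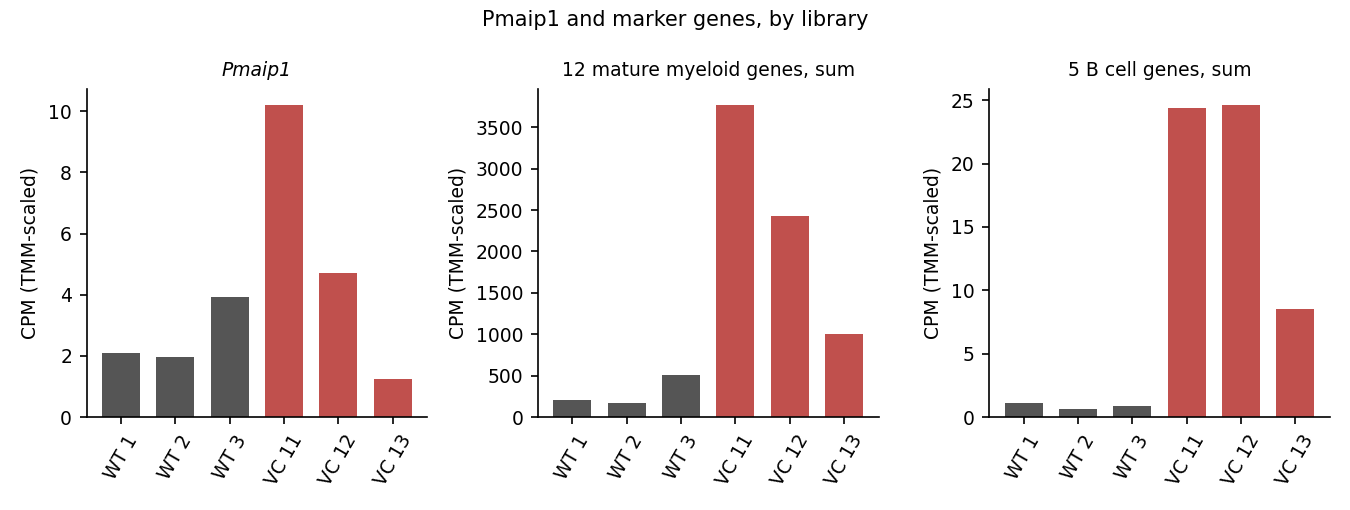
Level of *Pmaip1* and summed level of 12 mature myeloid and 5 B cell marker genes in each library (TMM-scaled CPM, y axis from 0 with its own scale in each panel, WT in grey and VC in red, with replicate numbers on the x axis). Both marker sums are higher in every VC library than in every WT library, whereas *Pmaip1* ranges from 1.25 to 10.2 CPM within the VC group.

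Other marker genes differed between the groups as well, and apply to the changes of *Bid*, *Bmf* and *Bax* as much as to *Pmaip1*. Of 9 genes of mast cells and basophils, 8 were lower in VC cells, and their summed level was 24108, 27233 and 16980 CPM in WT against 4755, 4695 and 5168 CPM in VC libraries. Per length, the mast cell protease gene *Cpa3* was the most abundant of them in WT cells. In VC cells *Hdc*, which encodes the enzyme that makes histamine, had the highest mean per length, but another of the 9 was above it in VC replicate 13. All 8 erythroid genes were higher, with sums of 2199, 1454 and 2016 CPM against 4924, 5413 and 4731 CPM, led by the globin gene *Hbb-bs*. The summed levels of these lineages differed by more than the level of any member called.

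B cell genes were scarce but also higher, with 4 of 5 tested and all 4 higher. Their sums were 1.10, 0.611 and 0.908 CPM in WT and 24.4, 24.6 and 8.50 CPM in VC libraries. By mean level per length *Cd79b* was the most abundant of them in VC cells, though not in VC replicate 11. None of 7 T cell genes had enough counts to be tested, and their sum was between 0.882 and 3.78 CPM. *Trac* had the highest mean per length of these. Of 4 NK cell genes the 1 tested, *Nkg7*, was higher, at 1.89 ± 0.803 and 4.32 ± 1.21 CPM. Of 7 macrophage genes 1 was higher (*Vcam1*), and *C1qa*, with the highest mean per length, was at 2.81 ± 1.24 and 4.30 ± 0.572 CPM and did not pass. Of 5 megakaryocyte genes 3 were tested, with 1 higher and 1 lower, *Gp1bb* was at 0 in all 6 libraries, and the most abundant, *Itga2b*, which mast cells and progenitors also express, fell from 237 ± 64.3 to 14.3 ± 0.124 CPM. The sequenced RNA is bulk RNA, in which fewer cells of a type and less RNA per cell cannot be told apart, and the part of such cells in the changes of the members was not tested.

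Levels were compared between members only per length, in FPKM, which the authors computed. In WT cells the order was *Bax* (52.6 ± 9.30 FPKM), *Bak1* (31.1 ± 2.12), *Bbc3* (28.8 ± 13.2), *Bad* (12.5 ± 2.16), *Bid* (10.7 ± 0.579), *Bik* (2.38 ± 0.154), *Bmf* (2.38 ± 0.606), *Bcl2l11* (1.15 ± 0.278), *Pmaip1* (0.998 ± 0.410) and *Bok* (0). Neighbours whose libraries overlapped, and whose order is therefore not fixed, were *Bak1* and *Bbc3*, *Bad* and *Bid*, *Bik* and *Bmf*, and *Bcl2l11* and *Pmaip1*. In VC cells the order was *Bax* (40.1 ± 1.28 FPKM), *Bak1* (35.2 ± 1.47), *Bbc3* (24.0 ± 2.46), *Bad* (15.2 ± 0.877), *Bid* (7.09 ± 0.450), *Bik* (2.75 ± 0.915), *Pmaip1* (2.01 ± 1.69), *Bmf* (1.37 ± 0.0916), *Bcl2l11* (0.970 ± 0.0612) and *Bok* (0). Here *Pmaip1* overlapped with *Bik* and with *Bmf*, and the other neighbours were apart. The same 5 genes, *Bax*, *Bak1*, *Bbc3*, *Bad* and *Bid*, were therefore the most abundant members in both groups. The effectors made up 59.1% ± 3.55 of the summed FPKM of the members in WT and 58.5% ± 1.57 in VC cells, and *Bbc3* made up 47.4% ± 8.80 and 45.0% ± 2.51 of the BH3-only sum.

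The members were then set against the anti-apoptotic BCL2 family, 8 genes of which 4 had enough counts to be tested. *Bcl2* and *Bcl2l2* (BCL-W) were lower in VC cells and 0 genes were higher, where 22.7% of all genes tested were lower and 21.5% higher. *Bcl2* went from 560, 699 and 461 counts to 28, 27 and 21 counts, with a log2 fold change of -4.63 (SE 0.25, adjusted p = 2.84e-05 from edgeR), which is larger in size than that of any pro-apoptotic member. *Bcl2l2* went from 28.9 ± 2.98 to 15.1 ± 1.26 CPM (log2 fold change -0.93, SE 0.13, adjusted p = 0.00117 from edgeR). *Bcl2l1* (BCL-XL) and *Mcl1*, the more abundant members of this family, did not pass the test, with log2 fold changes of 0.19 (adjusted p = 0.129) and -0.16 (adjusted p = 0.355). *Bcl2l10* was at 0 in all libraries, and the near-identical copies *Bcl2a1a*, *Bcl2a1b* and *Bcl2a1d*, between which reads may be split, had at most 4 counts in any library.

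The summed levels of both families are dominated by genes that did not pass the test or fell modestly. The summed FPKM of the pro-apoptotic members was 169.9, 120.3 and 137.4 in WT and 133.1, 126.6 and 126.4 in VC cells. The anti-apoptotic sum was 167.8, 178.7 and 140.6 against 153.5, 145.0 and 130.4 FPKM. The groups overlap for both sums, with means of 142.6 ± 25.2 and 128.7 ± 3.79 FPKM for the pro-apoptotic members (exact two-sided permutation test, p = 0.6) and of 162.3 ± 19.6 and 143.0 ± 11.7 FPKM for the anti-apoptotic genes (p = 0.3, same exact test). The ratio of the pro-apoptotic to the anti-apoptotic sum was 0.888 ± 0.186 and 0.903 ± 0.0575 (p = 1, same exact test), where 3 against 3 libraries cannot give a p under 0.1. *Mcl1* made up 82.4% ± 2.29 of the anti-apoptotic sum in WT and 83.4% ± 1.48 in VC cells, so that this sum follows *Mcl1*, and *Bcl2* made up 2.46% ± 0.375 and 0.112% ± 0.00827 of it. The sums were also taken as TPM, counts per length scaled to the same total in each library. The VC mean over the WT mean was then 0.99 for the pro-apoptotic and 0.96 for the anti-apoptotic sum. By FPKM it was 0.90 and 0.88. Sums of transcripts do not give the balance of the proteins, which was not measured in these libraries.

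**Figure D4:**
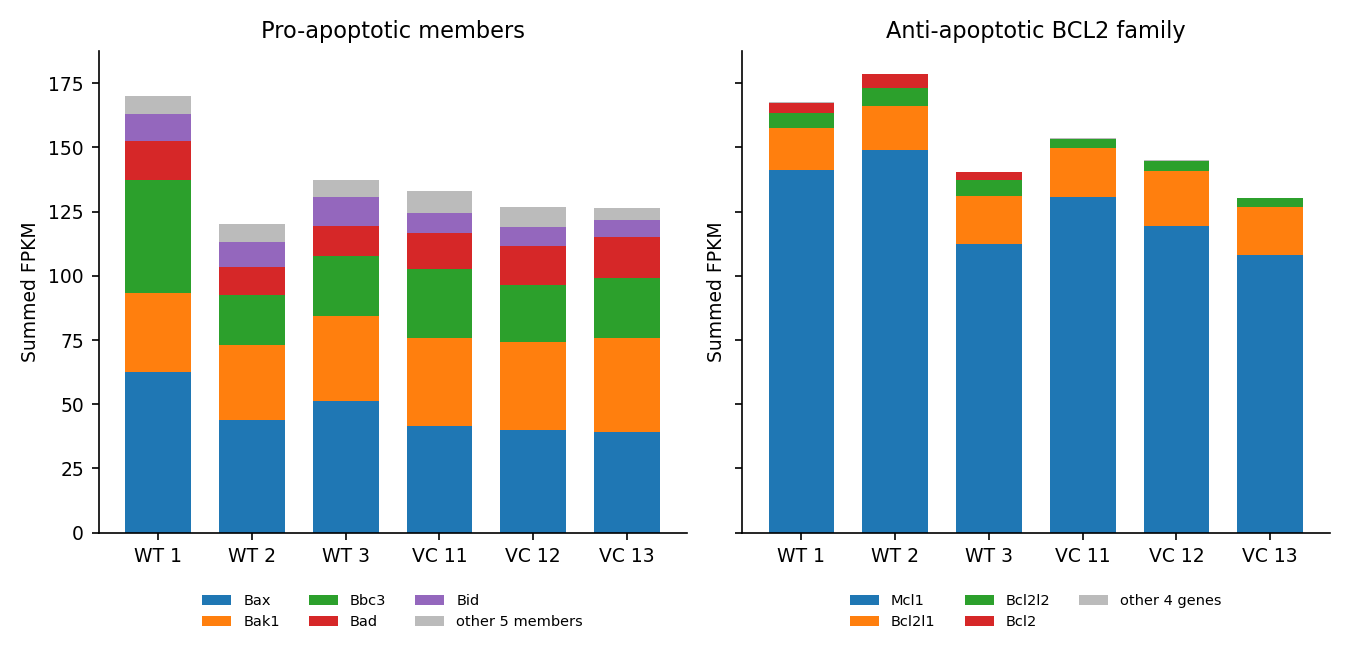
Summed level (FPKM, y axis from 0) of the pro-apoptotic members (left) and of the anti-apoptotic BCL2 family (right) in each library, split by gene, with group and replicate number on the x axis. The pro-apoptotic sum is highest in WT replicate 1 (169.9 FPKM), where *Bax* and *Bbc3* are both at their highest, and *Mcl1* forms most of every bar on the right.

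Further genes of the pathway were taken from lists by role. The counts called in each list stand beside 21.5% higher and 22.7% lower over all genes tested. No list was tested as a set. Of 7 other BCL2-related genes, 4 were tested, 1 was higher and 2 were lower, with a median log2 fold change of -0.24. The gene that rose was *Bcl2l13*, the neighbour of *Bid*. The mitophagy receptor genes *Bnip3* and *Bnip3l* fell, from 33.6 ± 18.7 to 4.38 ± 0.250 CPM (log2 fold change -2.94, adjusted p = 0.00076 from edgeR) and from 51.5 ± 4.48 to 36.4 ± 1.49 FPKM (log2 fold change -0.49, adjusted p = 0.00396 from edgeR). *Hrk*, the remaining BH3-only gene on this list, was at 0 in all libraries.

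Downstream of the effectors, 10 of 10 genes were tested, 2 were higher and 1 was lower, with a median log2 fold change of 0.19. The shares over all genes tested were 21.5% higher and 22.7% lower. Those that rose were *Htra2* (log2 fold change 0.79, adjusted p = 0.00106 from edgeR) and *Diablo* (0.60, adjusted p = 0.0180), whose proteins leave mitochondria and counter inhibitors of caspases. *Apaf1*, the scaffold of the apoptosome, fell from 161.3 ± 4.06 to 120.3 ± 4.57 CPM (log2 fold change -0.42, adjusted p = 0.00323 from edgeR). *Vdac2*, a channel of the outer membrane that binds BAK1 and BAX, was by FPKM the most abundant gene of this list, at 51.4 ± 4.97 and 58.4 ± 0.942 FPKM, and had a log2 fold change of 0.19 that did not pass. The number of higher genes on this list was 1 without WT replicate 1, VC replicate 11 or VC replicate 13, and 4 without WT replicate 3. *Htra2* and *Apaf1* passed in all 6 of these fits and *Diablo* in 3.

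Of 10 regulators of transcription of the members, 9 were tested, 2 were higher and 2 were lower, with a median log2 fold change of -0.13. Among all genes tested, 21.5% were higher and 22.7% lower. *Trp53*, which encodes p53, the activator of *Bbc3*, *Pmaip1* and *Bax*, had 237 ± 38.6 and 268 ± 7.79 CPM and did not pass (log2 fold change 0.18, adjusted p = 0.285 from edgeR), whereas *Mdm2*, both its target and its inhibitor, fell (log2 fold change -0.41, adjusted p = 0.0377). *Foxo3*, an activator of *Bcl2l11* and *Bbc3*, rose (log2 fold change 0.40, adjusted p = 0.00875), as did *E2f1* (0.32, adjusted p = 0.0421), named here after its value was seen. *Foxo3* passed in all 6 fits that left out a library, and *E2f1* passed in 1, that without WT replicate 3, and missed the threshold with DESeq2, with no count filter and with limma on log2(FPKM + 1). *Ddit3* (CHOP), of the unfolded protein response, fell (log2 fold change -0.85, adjusted p = 0.0204 from edgeR), and its upstream activator *Atf4* was at 0.05 and did not pass. Without WT replicate 1, VC replicate 12 or VC replicate 13 neither *Mdm2* nor *Ddit3* passed, with adjusted p in edgeR of up to 0.121 and 0.0744.

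Of 15 genes whose products act on the proteins of the members, all were tested, 2 were higher and 7 were lower, with a median log2 fold change of -0.24. Beside these, 21.5% of all genes tested were higher and 22.7% lower. The kinase genes *Pim1* and *Pim2*, whose products phosphorylate BAD, fell (log2 fold change -0.42, adjusted p = 0.0198 from edgeR, and -2.16, adjusted p = 0.00017). *Mapk8* (JNK1), which phosphorylates BIM and BMF, fell from 30.1 ± 2.34 to 11.6 ± 0.955 CPM (log2 fold change -1.37, adjusted p = 0.000194 from edgeR). The granule protease gene *Gzmb* had 11050, 2445 and 3080 counts in WT and 26, 15 and 6 counts in VC cells (log2 fold change -8.58, adjusted p = 0.000236 from edgeR), and mast cells express this gene too. *Ywhaz*, a 14-3-3 gene whose product holds phosphorylated BAD in the cytosol, had a log2 fold change of -0.24 that did not pass. Named after their values were seen, *Casp8*, whose product cuts BID, fell (log2 fold change -0.34, adjusted p = 0.0198 from edgeR), and of the dynein light chain genes *Dynll1* rose (0.32, adjusted p = 0.0268) and *Dynll2*, whose product binds BMF, fell (-0.60, adjusted p = 0.0391). When single libraries were left out, *Pim2*, *Mapk8* and *Gzmb* passed in all 6 fits, *Casp8* in 4, *Pim1* in 3 (not without WT replicate 1, VC replicate 12 or VC replicate 13), and *Dynll1* and *Dynll2* in 1 each, those without WT replicate 1 and WT replicate 2. *Dynll2* also missed the threshold with limma on log2(FPKM + 1) and on log2(FPKM + 0.1).

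**Figure D5:**
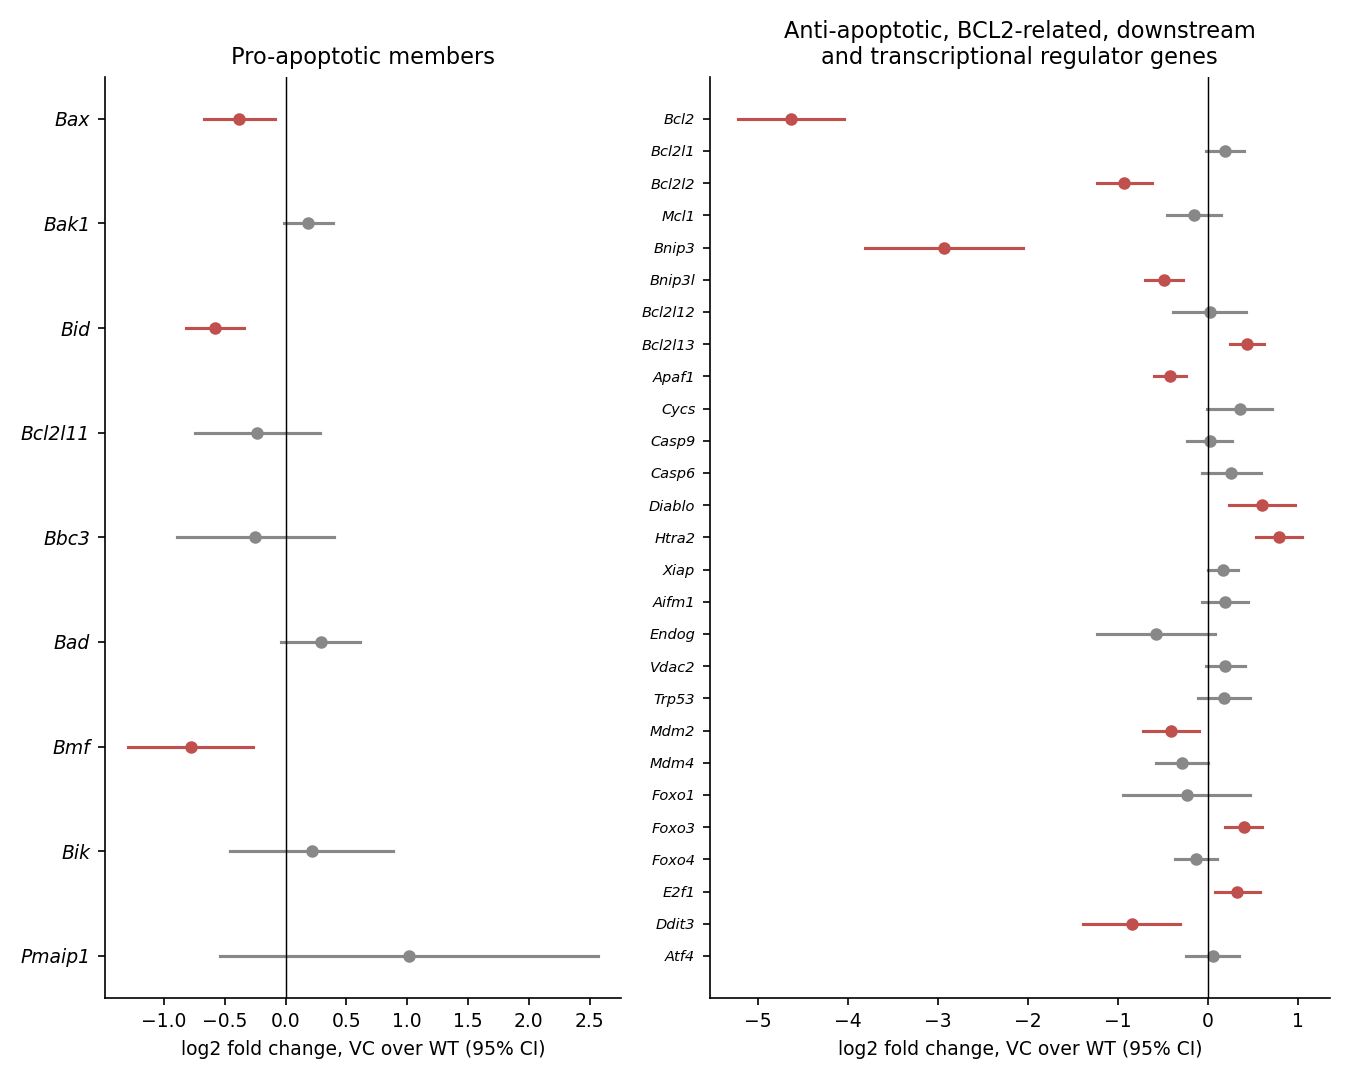
Log2 fold change (VC over WT, x axis, points) with 95% confidence interval (lines) of the 9 tested members (left) and of the tested anti-apoptotic, BCL2-related, downstream and transcriptional regulator genes (right), in red where the adjusted p was under 0.05 in edgeR. The 2 panels have different x scales, and the intervals of the members lie within 1.29 of 0 except that of *Pmaip1*, while *Bcl2* and *Bnip3* on the right lie at -4.63 and -2.94.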

How the data were processed

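RNA of GFP+ leukemia cells was sequenced in 3 *WT Phf6,RE9a* and 3 *VC Phf6,RE9a* libraries, on an Illumina NovaSeq platform with paired ends. Raw read counts for each Ensembl gene were deposited, along with FPKM, which the authors obtained by dividing the counts by gene length and by library size scaled with DESeq2 size factors. Their columns of normalized means, fold changes and p-values were not used. The submitters' processing notes name Bowtie 0.12.0 and the build mm8 without a role, whereas 98.3% of the identifiers found in GENCODE M21 (GRCm38) had the same start and end there, including 8 of the 10 members (all but *Bad* and *Pmaip1*), so deposited coordinates are given on GRCm38. The counting tool and strandedness are not given in the sources used here.

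After filterByExpr and TMM scaling, counts were tested by the quasi-likelihood method of edgeR 4.0.16 in R 4.3.3, with Benjamini-Hochberg adjustment over 14169 genes and a threshold of 0.05. Standard errors were obtained as the ratio of log2 fold change to the square root of F. Alternatives were DESeq2 1.42.0, size factors (RLE) and upper-quartile scaling, no filter, a minimum of 10 counts in each library, limma 3.58.1 on log2(FPKM + 1) and log2(FPKM + 0.1), an adjusted p under 0.01, each library left out, and TPM for levels. The test was checked on simulated data. Within a group, libraries varied beyond sampling noise, with a chi-square per gene of 11.8 to 46.4. The members and lists were chosen with earlier results of these data known. Named (with *Hdc* added after its value was seen) were *Phf6*, all members, of each pathway list the 3 tested genes with the highest FPKM and the 3 with the smallest p, and of each marker list the gene with the highest mean FPKM over all libraries, genes at 0 in all libraries and all progenitor genes, unless stated otherwise. Some genes of the downstream list are not reported here. Of 2 rows named *Ddit3* the one with counts was used.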

Additional observations from a re-analysis of the deposited data

How the results depend on the processing

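*Bid* kept its direction and its side of the threshold under every alternative run. The call of *Bax* was lost with upper-quartile scaling (log2 fold change -0.34) and with limma on log2(FPKM + 1) (-0.37), and at an adjusted p under 0.01, where 1 member was lower, the calls of *Bax* (-0.38) and *Bmf* (-0.78) were lost. Leaving out single libraries gave log2 fold changes of -0.50 to -0.25 for *Bax*, 0.13 to 0.23 for *Bak1*, -0.63 to -0.54 for *Bid*, -0.40 to -0.045 for *Bcl2l11*, -0.48 to 0.17 for *Bbc3*, 0.19 to 0.43 for *Bad*, -0.96 to -0.59 for *Bmf*, -0.064 to 0.41 for *Bik* and 0.17 to 1.48 for *Pmaip1*. *Bbc3* reversed without WT replicate 1 (0.17) and *Bik* without VC replicate 12 (-0.064). The numbers of members higher and lower were 0 to 1 and 1 to 3, with 1 lower, *Bid*, without WT replicate 1 or any 1 VC library. These fits have fewer samples. In them the genes called ranged, higher and lower, from 1 to 4 and 1 to 1 downstream, 1 to 2 and 0 to 2 among transcriptional regulators, 1 to 2 and 3 to 7 among post-translational regulators, and 2179 to 3132 and 2511 to 3338 over all genes. At an adjusted p under 0.01 there were 1 higher downstream, 1 higher and 0 lower among transcriptional regulators, 1 higher and 3 lower among post-translational regulators, and 1690 higher and 2110 lower over all genes. The transcriptional regulators had 1 higher, with *E2f1* lost, with DESeq2, with no count filter and with limma on log2(FPKM + 1), the post-translational regulators 1 higher with at least 10 counts in every library, and the other BCL2-related genes 2 higher with no count filter. The cause of these changes was not tested. No paired analysis was possible because the groups share no replicate numbers. Counts were lowest for *Bok*, with 0, and for *Bik* and *Pmaip1*, with 21 to 173 per library.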
